A study of Mus musculus with 2 samples.

Results

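The proteasome is the barrel-shaped protease that degrades ubiquitin-tagged proteins. Its core particle stacks rings of alpha subunits, which form the gate, around rings of beta subunits, some of which carry the proteolytic sites; a cap of ATPases and other subunits binds the ubiquitin tag, unfolds the substrate and feeds it into the core. In skeletal muscle the system supplies much of the breakdown of cytosolic and myofibrillar proteins, and proteasome genes are known to be switched on together when muscle wastes. The genes described here are the mRNA rows whose symbol begins with Psma to Psmg followed by a digit, taken by name alone: 49 of 22669 mRNA rows, in a deposited table of 44787 gene rows. They comprise 19 core genes (Psma and Psmb), 21 genes with cap names (Psmc and Psmd), 4 activator genes (Psme) and 5 others (Psmf and Psmg).

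The study sequenced RNA from muscle of the hind limb, taken at postnatal day 30 from mice on a C57BL/6 background, in 1 library labelled SRSF1-MKO and 1 WT library. SRSF1 is a serine/arginine-rich splicing factor. The labels do not spell out MKO, and the sources used here give neither the allele, nor the driver of any Cre, nor the number of animals per library. With 1 library per genotype there is no replicate check and no test between genotypes, so each difference compares these libraries, and every interval below covers the counting of reads only. The submitters' description lines name the table columns in contradictory ways, and the columns were read by the genotype in their own names; all directions rest on that reading. Srsf1 itself was at 6.70 FPKM (fragments counted on a gene, divided by its length and by the library's total) in SRSF1-MKO muscle and 13.7 FPKM in WT muscle, a ratio of 0.489 (95% counting interval 0.449 to 0.532). The levels divide by library totals of 21350284 reads for SRSF1-MKO and 23146640 reads for WT, recovered from the FPKM values. Skeletal muscle markers were abundant in both libraries, with Acta1, the skeletal actin, at 10040 FPKM in SRSF1-MKO and 13109 FPKM in WT. In whole tissue, fewer cells of a type and less RNA per cell cannot be told apart.

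Most proteasome genes were at a higher level in the SRSF1-MKO library, and the median ratio was larger for the core genes than for the cap genes. Of the 49 genes, 46 had a mean of 1 FPKM or more, and these were at 1 FPKM or more in both libraries. On the log2(FPKM + 1) scale, 19 of the 46 passed 1.5-fold in the higher direction in SRSF1-MKO and 0 in the lower, beside 22.3% higher and 8.28% lower among the 9468 mRNA rows that average 1 FPKM or more. Among the 4683 mRNA rows that average 5 FPKM or more, which are nearer in level to these genes, 30.9% were higher and 8.58% lower. At 2-fold on the same scale, 3 genes (Psmb5, Psmd8 and Psmd11) were higher and 0 lower. The shares were 8.24% and 3.02% of the mRNA rows that average 1 FPKM or more. Without the 1 FPKM added to each level, the ratios of Psmb1, Psmb4, Psmb10, Psme2, Psmg3 and Psmg4 were also above 2. The median log2 ratio (SRSF1-MKO over WT) was 0.52 over the proteasome genes, against 0.19 over all mRNA rows at 1 FPKM or more and 0.32 over those at 5 FPKM or more. With the last of these, called the all-gene median below, set to 0, 7 of the 46 genes were at least 1.5-fold higher and 3 lower, beside 10.2% and 18.5% of the mRNA rows at 1 FPKM or more and 15% and 16.6% of those at 5 FPKM or more. Of the 37 proteasome genes that average 5 FPKM or more, 6 were then higher and 3 lower, so against rows of like level the share of higher genes was near the background. The summed level of the 46 genes was 2673 FPKM in SRSF1-MKO and 1847 FPKM in WT.

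**Figure D1:**
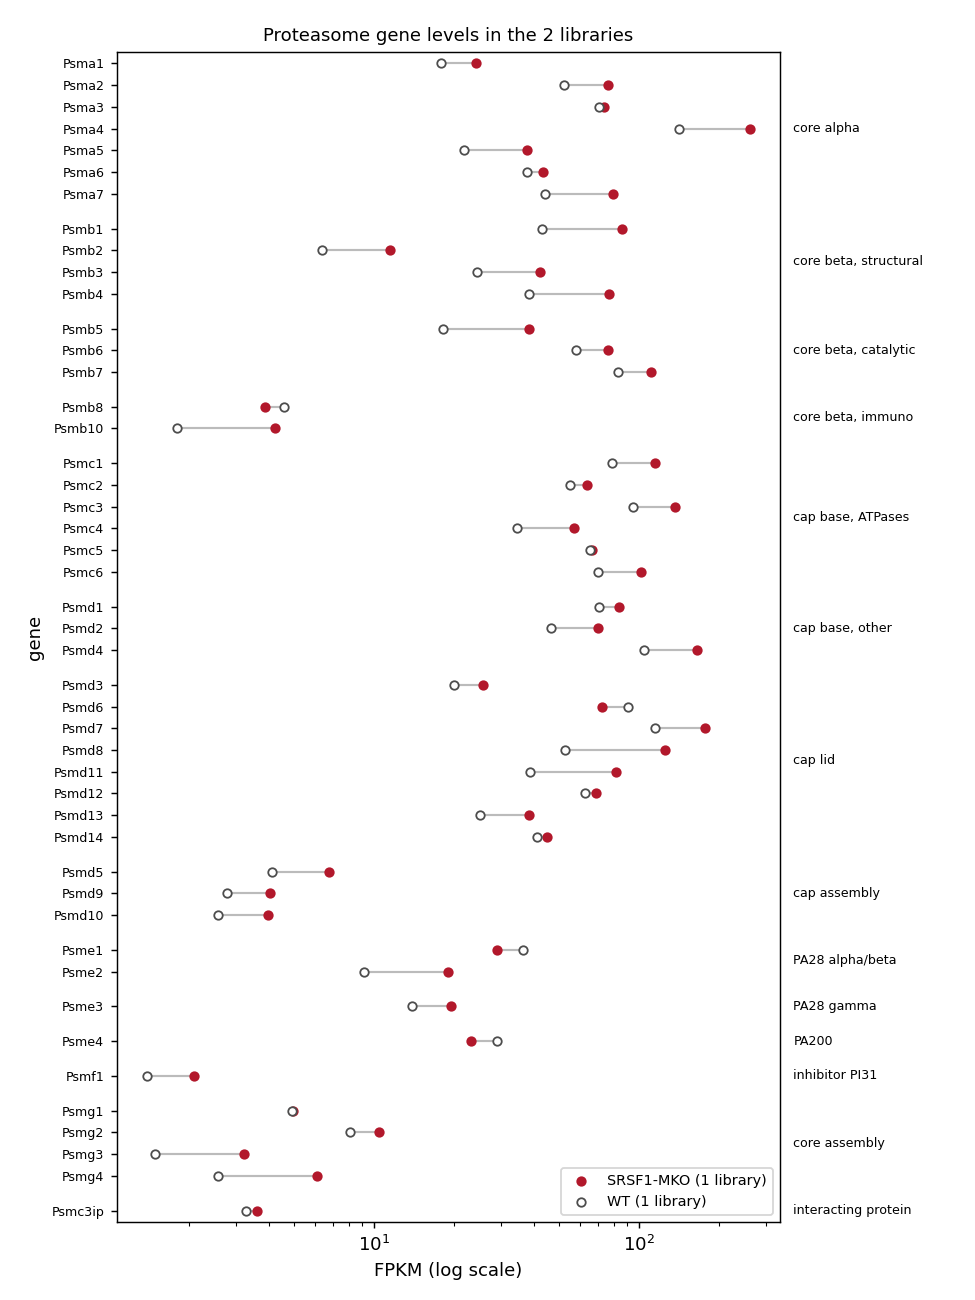
Level of each of the 46 measured proteasome genes, in FPKM on a log axis, with 1 filled point for the SRSF1-MKO library and 1 open point for the WT library; genes are grouped by their place in the particle. The filled point lies to the right of the open point for 42 genes and to the left for Psmb8, Psmd6, Psme1 and Psme4. Among all mRNA rows, 64.9% of those at 1 FPKM or more and 71.5% of those at 5 FPKM or more were higher in SRSF1-MKO.

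Core genes had the larger median ratio of the 2 main groups, a difference with no test. Of 16 measured core genes, 9 passed 1.5-fold upwards and 0 downwards. The shares were 22.3% and 8.28% of mRNA rows at 1 FPKM or more, and 30.9% and 8.58% of those at 5 FPKM or more. The median log2 ratio of the core genes was 0.76, which was above 85.7% of the mRNA rows at 1 FPKM or more and 79.4% of those at 5 FPKM or more. Of 21 genes with cap names, 7 (33.3%) passed upwards and 0 downwards, and the upward share was near the 30.9% of mRNA rows at 5 FPKM or more. The median of the cap genes was 0.52, above 74.4% and 65.1% of the same rows. Relative to the median of mRNA rows at 5 FPKM or more, 3 core genes and 2 cap genes were at least 1.5-fold higher, and 0 core genes and 1 cap gene lower. Among all those rows, 15% were then higher and 16.6% lower. The ranges of the log2 ratios overlapped widely: -0.19 to 1.04 for the core and -0.32 to 1.24 for the cap. Within the core, the median was 0.54 for the 7 measured alpha genes, close to that of the cap, and 0.77 for the 9 measured beta genes. It was 0.88 for Psmb1 to Psmb4 and 0.40 for the 3 constitutive catalytic genes. Relative to the median of mRNA rows at 5 FPKM or more, 0 alpha genes and 3 beta genes were at least 1.5-fold higher, beside the same 15% of those rows.

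**Figure D2:**
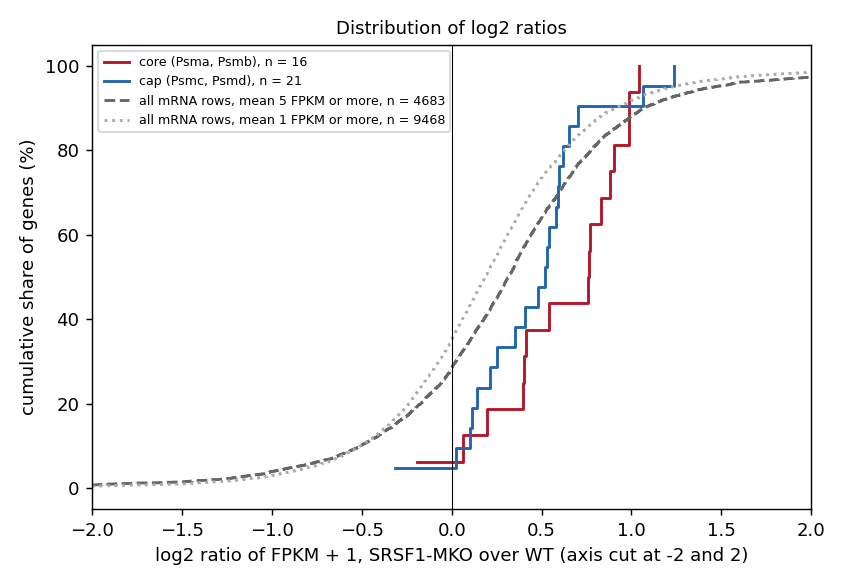
Cumulative share of genes (percent) by log2 ratio of FPKM + 1, SRSF1-MKO over WT, for 16 core genes, 21 cap genes, and all mRNA rows that average at least 5 or at least 1 FPKM. The core curve runs to the right of the cap curve over most of the range, with medians of 0.76 and 0.52, while both backgrounds have medians of 0.32 and 0.19 and longer tails on each side.

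NFE2L1, a transcription factor known to drive proteasome genes, binds antioxidant response elements with its relatives, and the 250 bases upstream of RefSeq gene starts (build GRCm38.p6) were searched for the letters TGACNNNGC and TGAGNNNGC on both strands. Promoter entries were found for 41 of the 49 genes, in 44 windows. Either form was present in 14 of the 44 windows (31.8%) and in 23.0% of all 32851 windows of that length. Among measured genes with an entry, 5 of the 16 that were 1.5-fold higher had a match, as did 8 of the 23 within 1.5-fold. Psmb7, a constitutive catalytic gene within 1.5-fold, had no promoter entry. Psmb6 was chosen as a catalytic gene within 1.5-fold to set beside Psmb5, which was past it. The matches shown are those of the 5 higher genes and, from the genes within 1.5-fold, only that of Psmb6. Each is written 5′ to 3′ on the strand of its gene, and capitals mark the match, which reads on the opposite strand in Psmd5 and Psmg4.
Psma4 (chr9:54950722-54950750, plus strand): gtgggcagacTGAGCCCGCcccagcactg
Psmb3 (chr11:97703414-97703433, plus strand): gcgttgacccTGAGAAAGCc
Psmb5 (chr14:54618024-54618052, minus strand): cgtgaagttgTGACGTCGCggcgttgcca
Psmd5 (chr2:34871097-34871125, minus strand): gatcccctggGCGGTCTCAgtctcttagt
Psmg4 (chr13:34162927-34162955, plus strand): tctaggccccGCCCACTCAtgctcgcccc
Psmb6 (chr11:70525338-70525356, plus strand): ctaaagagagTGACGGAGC
A match is a description of letters and not evidence of a bound site. The CCAAT box was in 34.1% of the proteasome windows and 33.8% of all windows, and a paired interferon response motif in 6.82% and 2.98%. That motif was in the windows of Psmb3, Psmd4 and Psmd9; its letters were not in those of Psmb8, Psmb9, Psmb10, Psme1 and Psme2.

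The 7 measured alpha ring genes all had a ratio above 1, by amounts that differed from gene to gene. Psma4 was at 261 FPKM in SRSF1-MKO and 141 FPKM in WT, a ratio of 1.85 (1.78 to 1.92), and had the highest level of any proteasome gene in both libraries. Psma7 was at 79.3 FPKM in SRSF1-MKO and 44.1 FPKM in WT, 1.80-fold higher (1.62 to 1.995). Psma5 was at 37.7 FPKM in SRSF1-MKO and 21.8 FPKM in WT, 1.73-fold higher (1.56 to 1.92). These 3 were the alpha genes past 1.5-fold. Psma2 was at 75.9 FPKM in SRSF1-MKO and 51.9 FPKM in WT, and Psma1 at 24.1 FPKM in SRSF1-MKO and 17.9 FPKM in WT, with ratios of 1.46 and 1.35. Psma6 was at 43.5 FPKM in SRSF1-MKO and 37.7 FPKM in WT, a ratio of 1.15, and its log2 ratio of 0.20 lies below the all-gene median. Psma3 was at 73.5 FPKM in SRSF1-MKO and 70.4 FPKM in WT, and its interval of 0.997 to 1.09 included 1. Psma8, the alpha subunit that replaces Psma7 in the testis, was at 0.0264 FPKM in SRSF1-MKO and 0.0488 FPKM in WT, from 1 read and 2 reads.

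The beta genes without a proteolytic site, Psmb1 to Psmb4, lay close together in their ratios. All 4 were past 1.5-fold in SRSF1-MKO, and their summed level was 217 FPKM in SRSF1-MKO and 112 FPKM in WT. Psmb1 was at 86.4 FPKM in SRSF1-MKO and 43.1 FPKM in WT, a ratio of 2.005 (1.86 to 2.16). Psmb4 was at 76.9 FPKM in SRSF1-MKO and 38.2 FPKM in WT, a ratio of 2.01 (1.85 to 2.19). Their counting intervals lie above the ratio of 1.27 that is the median of mRNA rows at 5 FPKM or more, and relative to that median both stayed at 1.5-fold or more. Psmb3 was at 42.2 FPKM in SRSF1-MKO and 24.3 FPKM in WT, and Psmb2 at 11.5 FPKM in SRSF1-MKO and 6.38 FPKM in WT, with ratios of 1.73 and 1.80.

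The 3 constitutive catalytic subunits differed in their ratios. Psmb5, which carries the chymotrypsin-like site and is the target of the drug bortezomib (mm10 chromosome 14, 54614120 to 54617995, minus strand), was at 38.4 FPKM in SRSF1-MKO and 18.1 FPKM in WT, a ratio of 2.12 (1.87 to 2.41). Its upstream match is printed above. It had the largest log2 ratio of the core genes, 1.04, and 0.73 once the median of mRNA rows at 5 FPKM or more was set to 0. Psmb6, the caspase-like subunit, was at 76.5 FPKM in SRSF1-MKO and 57.8 FPKM in WT, a ratio of 1.32 (1.23 to 1.42). Psmb7, the trypsin-like subunit, was at 110.3 FPKM in SRSF1-MKO and 83.3 FPKM in WT, also 1.32-fold higher (1.27 to 1.38). The counting interval of Psmb5 lies above those of both others. Psmb5 stayed the lowest of the 3 in level in both libraries.

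Immunoproteasome subunits, the forms that replace the constitutive catalytic subunits in immune cells and after interferon gamma, stayed a small part of the catalytic pool. Together Psmb8, Psmb9 and Psmb10 made up 3.78% of the summed FPKM of the 6 catalytic genes in SRSF1-MKO and 4.52% in WT. Psmb10, which replaces Psmb7, was at 4.23 FPKM in SRSF1-MKO and 1.80 FPKM in WT, a ratio of 2.35 (1.72 to 3.25). Relative to the all-gene median its log2 ratio with the pseudocount was 0.58, just within 1.5-fold. Psmb8, which replaces Psmb5, was at 3.87 FPKM in SRSF1-MKO and 4.56 FPKM in WT, and Psmb9, which replaces Psmb6, was under the level filter at 0.760 FPKM in SRSF1-MKO and 1.18 FPKM in WT. The counting intervals of both ratios included 1, at 0.648 to 1.11 for Psmb8 and 0.362 to 1.12 for Psmb9. Psmb8 made up 9.15% of the Psmb8 and Psmb5 sum in SRSF1-MKO and 20.1% in WT; the interval of the Psmb5 ratio excluded 1 and that of Psmb8 did not. Psmb9 made up 0.985% of its pair with Psmb6 in SRSF1-MKO and 1.999% in WT. The remaining pair went the other way, with Psmb10 at 3.69% of its sum with Psmb7 in SRSF1-MKO and 2.11% in WT. Psmb6, Psmb8 and Psmb9 are placed on alternate scaffolds, where reads may be shared with the chromosome copy, and Psmb5, Psmb7 and Psmb10 are not. The sizes of these shares are uncertain for that reason. Psmb11, the catalytic subunit of the thymus cortex, was at 0.0110 FPKM in SRSF1-MKO, from 1 read. It was listed at 0 in WT, and 3 reads there amount to 0.0305 FPKM.

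**Figure D3:**
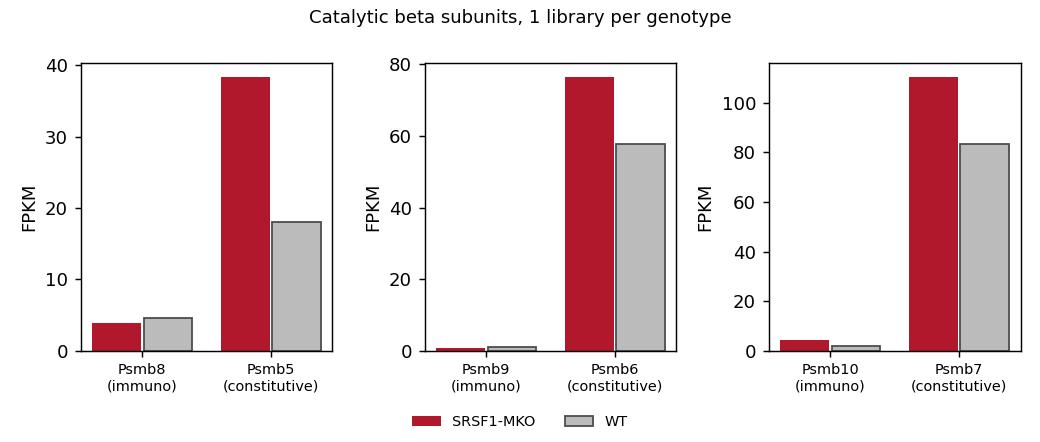
FPKM of each immunoproteasome subunit and the constitutive subunit it replaces, with a bar from 0 for the SRSF1-MKO library on the left and for the WT library on the right. Each immuno form is far below its partner in both libraries; the largest gap between libraries on a relative scale is that of Psmb10, with 4.23 FPKM in SRSF1-MKO and 1.80 FPKM in WT.

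Genes around the immunoproteasome and immune cell markers were read beside these values. Of 8 measured genes of interferon signalling and MHC class I presentation, 0 passed 1.5-fold upwards in SRSF1-MKO and 1 downwards. The shares among mRNA rows at 1 FPKM or more were 22.3% and 8.28%. The most abundant of these genes were B2m, the class I light chain, at 92.1 FPKM in SRSF1-MKO and 84.0 FPKM in WT, and H2-D1, a class I heavy chain, at 43.7 FPKM in SRSF1-MKO and 40.3 FPKM in WT. Macrophage markers passed 1.5-fold upwards in SRSF1-MKO for 5 of 9 measured genes and downwards for 0, beside the same 22.3% and 8.28%. Relative to the all-gene median, 3 passed upwards, beside 10.2% of mRNA rows at 1 FPKM or more. The macrophage markers summed over 11 rows to 107 FPKM in SRSF1-MKO and 46.0 FPKM in WT, and 0 of the 11 were at 0 in both libraries. The most abundant was Lyz2, lysozyme, at 56.3 FPKM in SRSF1-MKO and 18.1 FPKM in WT, and Cd68, a lysosomal membrane protein of macrophages, was at 7.99 FPKM in SRSF1-MKO and 0.752 FPKM in WT. Mrc1, the mannose receptor, lay the other way, at 5.61 FPKM in SRSF1-MKO and 6.79 FPKM in WT (interval of the ratio 0.744 to 0.917). Of the 10 leukocyte and lymphocyte markers, 0 had a mean of 1 FPKM, Cd8a was listed at 0 in both libraries, and the highest, Ptprc, was at 1.09 FPKM in SRSF1-MKO and 0.543 FPKM in WT. The part of the macrophage RNA in the Psmb10 result was not tested.

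Of the 6 cap ATPases, which form the ring of the base that unfolds substrates, only Psmc4 passed 1.5-fold. It was at 56.9 FPKM in SRSF1-MKO and 34.6 FPKM in WT (ratio 1.64, 1.52 to 1.77). Psmc1 was at 114.9 FPKM in SRSF1-MKO and 78.7 FPKM in WT, Psmc3 at 136 FPKM in SRSF1-MKO and 94.6 FPKM in WT, and Psmc6 at 101.3 FPKM in SRSF1-MKO and 69.9 FPKM in WT. Their ratios were close together, at 1.46, 1.44 and 1.45. Psmc2 was at 63.5 FPKM in SRSF1-MKO and 54.6 FPKM in WT, a ratio of 1.16, and its log2 ratio of 0.21 lies below the all-gene median. Psmc5 was at 66.4 FPKM in SRSF1-MKO and 65.3 FPKM in WT, and its interval of 0.954 to 1.09 included 1. The 6 subunits occur once each per ring, and their levels spanned 2.39-fold in SRSF1-MKO and 2.74-fold in WT. Psmc3ip, which the name rule takes although it encodes a meiotic recombination factor and not a cap subunit, was at 3.61 FPKM in SRSF1-MKO and 3.29 FPKM in WT, and its interval of 0.797 to 1.51 included 1.

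The other base subunits are scaffolds and ubiquitin receptors. Psmd4, the ubiquitin receptor known as Rpn10 in yeast, was at 165 FPKM in SRSF1-MKO and 104 FPKM in WT, a ratio of 1.58 (1.51 to 1.65). Psmd2, a large scaffold known as Rpn1 in yeast, was at 70.1 FPKM in SRSF1-MKO and 46.6 FPKM in WT; its ratio of 1.51 (1.44 to 1.58) gave a log2 value of 0.58 with the pseudocount, just under the threshold. Psmd13, a lid subunit, lay just over it, with a log2 ratio of 0.59 at 38.3 FPKM in SRSF1-MKO and 25.1 FPKM in WT. Psmd1, the other large scaffold, was at 84.0 FPKM in SRSF1-MKO and 70.4 FPKM in WT, a ratio of 1.19, and its log2 ratio of 0.25 lies below the all-gene median.

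The lid held both ends of the cap's range. Psmd8 (mm10 chromosome 7, 29174187 to 29180673, minus strand), known as Rpn12 in yeast and the last subunit to join the lid there, had the largest log2 ratio of all 46 genes, 1.24, and 0.92 relative to the all-gene median. It was at 125 FPKM in SRSF1-MKO and 52.5 FPKM in WT, a ratio of 2.38 (2.25 to 2.52) on about 4039 and 1840 reads. Psmd11, a scaffold of the lid (mm10 chromosome 11, 80428615 to 80472133, on the plus strand), stood at 81.9 FPKM in SRSF1-MKO and 38.7 FPKM in WT, a ratio of 2.12 (2.03 to 2.21). Psmd7, the partner of the deubiquitinase, was at 177 FPKM in SRSF1-MKO and 115 FPKM in WT, a ratio of 1.54. Against these, Psmd6 was lower in SRSF1-MKO, at 72.5 FPKM, with 90.5 FPKM in WT, a ratio of 0.801 (0.755 to 0.849). It was the 1 constitutive subunit of the complete particle below WT, and relative to the all-gene median it was at least 1.5-fold lower. Psmd14, the deubiquitinase that cleaves the ubiquitin chain off, was at 44.7 FPKM in SRSF1-MKO and 41.2 FPKM in WT, and Psmd12 at 68.6 FPKM in SRSF1-MKO and 62.2 FPKM in WT. Psmd3 was at 25.8 FPKM in SRSF1-MKO and 20.0 FPKM in WT. The log2 ratios of Psmd12 and Psmd14, 0.14 and 0.11, turn negative when the all-gene median is set to 0, and that of Psmd3, 0.35, does not.

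**Figure D4:**
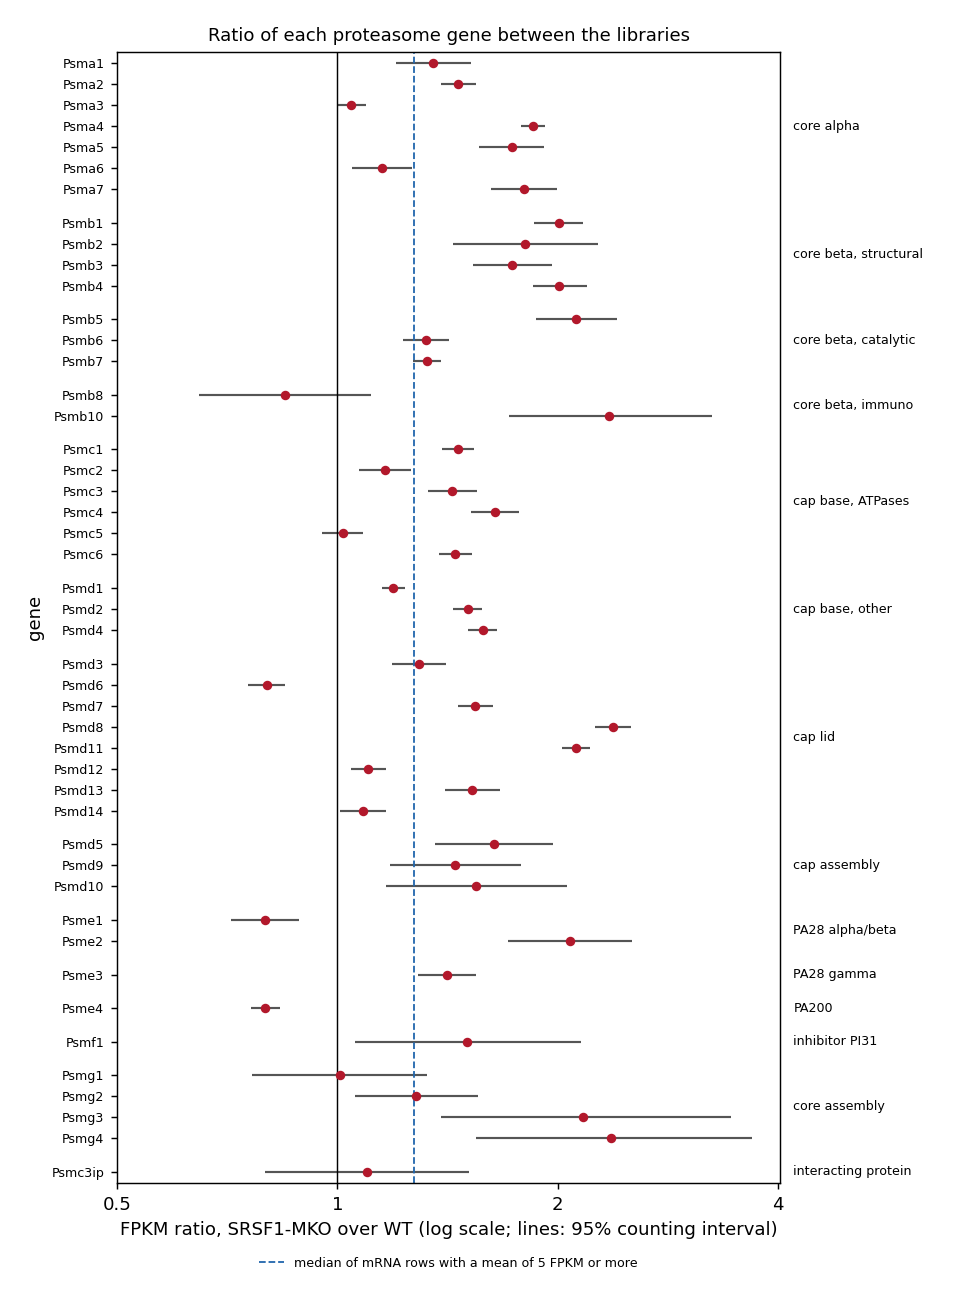
FPKM ratio of SRSF1-MKO over WT for each of the 46 genes, as a point with its 95% counting interval on a log axis; the solid line marks 1 and the dashed line the median ratio of mRNA rows at 5 FPKM or more, 1.27. The intervals lie above 1 for 38 genes, include 1 for 5, and lie below 1 for Psmd6, Psme1 and Psme4. Intervals were not counted for other mRNA rows, and 71.5% of all mRNA rows at 5 FPKM or more had a ratio above 1. Psmd8 at 2.38 is the rightmost point.

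Taking the 31 measured constitutive subunits of core and cap together, 14 were at least 1.5-fold higher and 30 had a ratio above 1, with a median log2 ratio of 0.54. Ratios above 1 were also common elsewhere, at 64.9% of mRNA rows at 1 FPKM or more and 71.5% of those at 5 FPKM or more. At least 1.5-fold higher were 22.3% of the rows at 1 FPKM or more and 30.9% of those at 5 FPKM or more. Relative to the all-gene median, 5 of the 31 were at least 1.5-fold higher and 1 lower, beside 15% and 16.6% of mRNA rows at 5 FPKM or more. The share of higher subunits was then near the background. The SD of the log2 ratio was 0.36 over these subunits and 0.81 over all mRNA rows at 5 FPKM or more. Extreme rows, from -4.78 to 6.77, enter the latter SD. The quartiles lay closer, at 0.30 and 0.77 for the subunits and -0.055 and 0.68 for those rows. The order of the subunits' levels was largely shared between the libraries, with a Spearman rho of 0.83 across the 31 genes, which are not independent replicates. Levels within the particle were uneven in both libraries, from Psmb2 at the low end to Psma4 at the high end, 22.7-fold apart in SRSF1-MKO and 22.2-fold apart in WT. FPKM divides by a gene length, and errors in that length enter these spans but cancel in the ratios between libraries.

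The activators split into higher and lower members. PA28 alpha and beta (Psme1 and Psme2) form one ring that opens the core and are induced by interferon gamma. Psme2 was at 19.0 FPKM in SRSF1-MKO and 9.16 FPKM in WT, a ratio of 2.08 (1.71 to 2.52), and was the 1 activator gene past 1.5-fold. Psme1 was lower in SRSF1-MKO, at 29.0 FPKM, with 36.4 FPKM in WT, a ratio of 0.796 (0.716 to 0.885). The level of Psme1 was thus 1.53 times that of Psme2 in SRSF1-MKO and 3.98 times in WT. The genes lie close together on chromosome 14 of mm10, Psme1 at 55578494 to 55581527 on the plus strand and Psme2 at 55587440 to 55591021 on the minus strand. Psme3, the nuclear PA28 gamma, was at 19.5 FPKM in SRSF1-MKO and 13.9 FPKM in WT, a ratio of 1.41 (1.29 to 1.55). Psme4, the large activator PA200, was lower in SRSF1-MKO, at 23.2 FPKM, with 29.1 FPKM in WT, a ratio of 0.797 (0.762 to 0.835). Psme1 and Psme4 were at least 1.5-fold lower only relative to the all-gene median. The median log2 ratio of the 4 genes, 0.08, became -0.24 with that median set to 0.

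Dedicated chaperones assemble the particle and leave it afterwards. Those with Psm names were low in level. Psmg3 and Psmg4, which help to form the alpha ring, were the 2 higher members of the Psmf and Psmg genes. Psmg4 was at 6.09 FPKM in SRSF1-MKO and 2.57 FPKM in WT, a ratio of 2.37 (1.55 to 3.69) on 72 and 33 reads. Psmg3 was at 3.22 FPKM in SRSF1-MKO and 1.48 FPKM in WT, a ratio of 2.17 (1.39 to 3.45) on 62 and 31 reads. Relative to the all-gene median, Psmg3 was within 1.5-fold, with a log2 ratio of 0.45. The other pair of alpha-ring chaperones had smaller ratios. Psmg2 was at 10.4 FPKM in SRSF1-MKO and 8.12 FPKM in WT, a ratio of 1.28 (1.06 to 1.55), an interval that overlaps those of Psmg3 and Psmg4. Psmg1 was at 4.95 FPKM in SRSF1-MKO and 4.91 FPKM in WT, with an interval of 0.763 to 1.33. Psmd5, Psmd9 and Psmd10 carry cap names but are chaperones of the base. Psmd5 was at 6.74 FPKM in SRSF1-MKO and 4.13 FPKM in WT, a ratio of 1.64 (1.36 to 1.97), the 1 of these 3 past the threshold. Psmd9 was at 4.03 FPKM in SRSF1-MKO and 2.78 FPKM in WT, and Psmd10, also known as gankyrin, at 3.99 FPKM in SRSF1-MKO and 2.58 FPKM in WT. The ratio of Psmd10 was 1.55 (1.17 to 2.06). Its log2 ratio was 0.48 with the pseudocount of 1 FPKM, within 1.5-fold, and 0.61 with a pseudocount of 0.1 FPKM, past it. Psmf1, the regulator PI31, was at 2.09 FPKM in SRSF1-MKO and 1.39 FPKM in WT, with an interval of 1.06 to 2.15.

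Among partners of the proteasome that carry other names, 1 gene differed more than any proteasome gene. AI314180, now named Ecpas and the mouse counterpart of yeast Ecm29, a HEAT-repeat adaptor that binds the assembled 26S proteasome, was at 6.01 FPKM in SRSF1-MKO and 34.0 FPKM in WT, 5.66-fold lower (ratio 0.177, 0.162 to 0.192) on 634 and 3893 reads. Of 11 measured partners, it was the 1 past 1.5-fold downwards, while 5 passed upwards. Among mRNA rows at 1 FPKM or more, 8.28% passed downwards and 22.3% upwards. Relative to the all-gene median, 2 partners passed in each direction, beside 18.5% downwards and 10.2% upwards among those rows. Akirin2, which carries proteasomes into the nucleus, was at 21.96 FPKM in SRSF1-MKO and 9.60 FPKM in WT, a ratio of 2.29 (2.02 to 2.59). Pomp, the maturation protein of the core, was at 161 FPKM in SRSF1-MKO and 88.8 FPKM in WT, a ratio of 1.82 (1.71 to 1.94). The small lid subunit Shfm1, now named Sem1, was at 189 FPKM in SRSF1-MKO and 112 FPKM in WT, a ratio of 1.69. The thioredoxin-like Txnl1 was at 39.4 FPKM in SRSF1-MKO and 20.1 FPKM in WT, and the ubiquitin receptor Adrm1 at 41.1 FPKM in SRSF1-MKO and 26.5 FPKM in WT. The deubiquitinase Uchl5, which docks on Adrm1, was lower within 1.5-fold, at 17.3 FPKM in SRSF1-MKO and 21.9 FPKM in WT (ratio 0.787, 0.712 to 0.869), and Usp14, the other proteasome-bound deubiquitinase, at 6.85 FPKM in SRSF1-MKO and 5.75 FPKM in WT.

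Transcription factors known to act on proteasome genes were also followed. NFE2L1, also called Nrf1, is a membrane-bound factor that acts on these genes when proteolysis falls short, after DDI2 cleaves it and NGLY1 removes its sugars. Of 13 measured genes of this list, 5 passed 1.5-fold upwards in SRSF1-MKO and 0 downwards, beside 22.3% and 8.28% of mRNA rows at 1 FPKM or more. Relative to the all-gene median, 2 passed upwards (Nfe2l2 and Maff) and 1 downwards (Nfyb, a subunit of the CCAAT-binding factor). The shares of those mRNA rows were then 10.2% and 18.5%. Nfe2l1 was at 94.98 FPKM in SRSF1-MKO and 62.5 FPKM in WT, a ratio of 1.52 (1.47 to 1.57). Relative to the all-gene median its log2 ratio was 0.28, within 1.5-fold. Nfe2l2, the oxidative stress factor Nrf2, was at 31.1 FPKM in SRSF1-MKO and 11.8 FPKM in WT, a ratio of 2.64 (2.41 to 2.89). The small Maf partners Maff and Mafk and the repressor Bach1 completed the 5, with Maff at 3.52 FPKM in SRSF1-MKO and 1.01 FPKM in WT. Mafk was at 5.81 FPKM in SRSF1-MKO and 3.02 FPKM in WT, and Bach1 at 4.18 FPKM in SRSF1-MKO and 2.29 FPKM in WT. Ddi2 was at 8.19 FPKM in SRSF1-MKO and 5.91 FPKM in WT, and Ngly1 at 7.88 FPKM in SRSF1-MKO and 6.11 FPKM in WT. These are mRNA levels, and NFE2L1 is controlled largely at the protein.

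**Figure D5:**
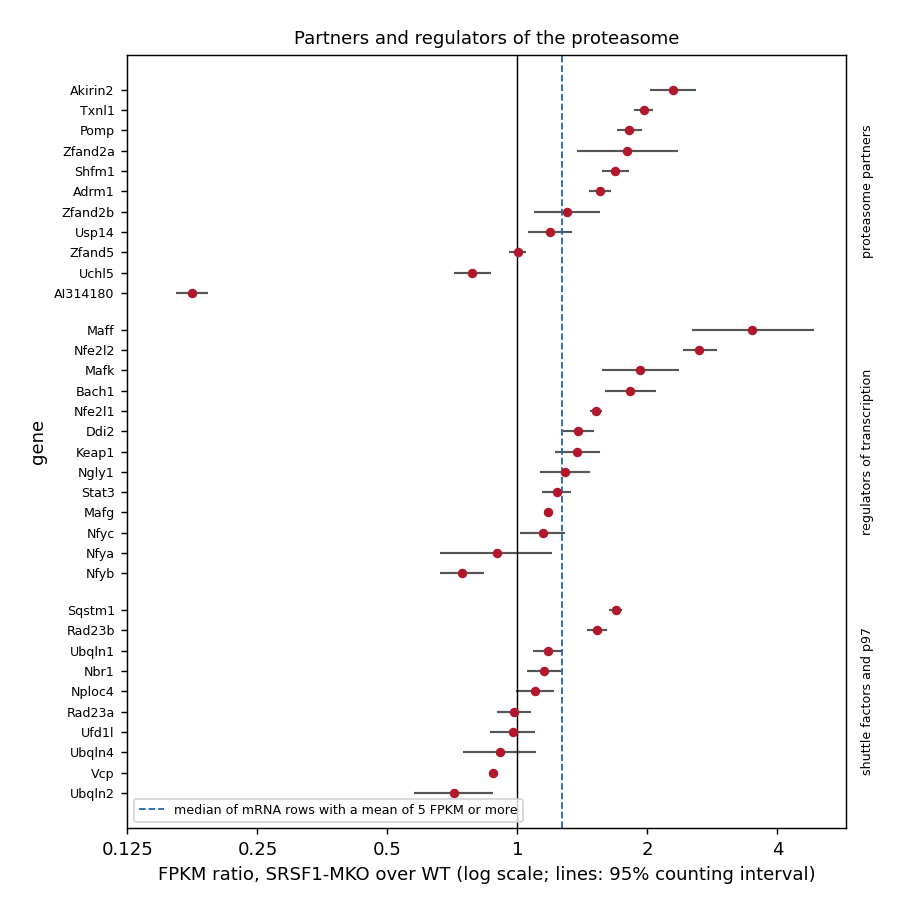
FPKM ratio of SRSF1-MKO over WT for proteasome partners with other names, regulators of transcription, and shuttle factors with p97, as points with 95% counting intervals where reads could be recovered; the log axis has a solid line at 1 and a dashed line at 1.27, the median ratio of mRNA rows at 5 FPKM or more. AI314180 lies alone on the left at 0.177, and Maff and Nfe2l2 lie farthest to the right.

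Genes of ubiquitin itself and of the factors that carry substrates to the proteasome had ratios that differed from gene to gene. Rps27a, which encodes ubiquitin joined to a ribosomal protein, was at 183 FPKM in SRSF1-MKO and 92.3 FPKM in WT, a ratio of 1.99. Ubb, a polyubiquitin gene, was within 1.5-fold, at 419 FPKM in SRSF1-MKO and 323 FPKM in WT. Ubiquitin genes share sequence with each other and with pseudogenes, so these levels are uncertain. Of 10 measured shuttle and p97 genes, 2 passed upwards and 0 downwards, near the 22.3% upwards of mRNA rows at 1 FPKM or more. Relative to the all-gene median 0 passed upwards and 1 downwards (Ubqln2, a shuttle), beside 10.2% and 18.5% of those rows. Sqstm1, the autophagy receptor p62, was at 187 FPKM in SRSF1-MKO and 111 FPKM in WT, and the shuttle Rad23b at 37.4 FPKM in SRSF1-MKO and 24.5 FPKM in WT. Vcp, the p97 ATPase that extracts ubiquitinated proteins, was at 94.4 FPKM in SRSF1-MKO and 108 FPKM in WT.

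Some levels carry limits from how the genome was covered. The table places Psmb6, Psmb8, Psmb9 and Psmg1 on alternate scaffolds and not on their chromosomes, so reads may be shared with the chromosome copy. Exons of 9 of the 49 genes overlap those of another protein-coding gene on the opposite strand or the same one, among them Psmb7 with Nek6, Psmd13 with Sirt3 and Psmb9 with Tap1, and the sources used here do not say whether reads were assigned by strand. Of 5 pseudogene rows with the same name stem, Psmb7-ps1 was at 3.10 FPKM in SRSF1-MKO and 3.35 FPKM in WT, and the others were at or near 0.

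Abundant muscle mRNAs were lower in SRSF1-MKO. The 6 skeletal muscle markers summed to 34238 FPKM in SRSF1-MKO and 73145 FPKM in WT, and 4 of the 6, Ckm, Myh4, Tnnt3 and Ryr1, were at least 1.5-fold lower. Among mRNA rows at 1 FPKM or more, 8.28% were lower by that measure, and 18.5% relative to the all-gene median. Adipocyte markers were lower for 4 of 4 genes, with sums of 16.1 FPKM in SRSF1-MKO and 38.9 FPKM in WT. All 5 endothelial markers had a ratio and counting interval below 1, and 2 of them passed 1.5-fold (5 relative to the all-gene median), with sums of 42.9 FPKM in SRSF1-MKO and 64.1 FPKM in WT. Fibro-adipogenic markers went both ways. Their sums were 388 FPKM in SRSF1-MKO and 548 FPKM in WT, with the collagen genes Col1a1 at 121 FPKM in SRSF1-MKO and 276 FPKM in WT and Col3a1 at 115 FPKM in SRSF1-MKO and 145 FPKM in WT. Pdgfra, Dcn and Lum had ratios of 1.47, 1.19 and 1.24, and the median log2 ratio of the list was 0.24. The part of these shifts in the proteasome ratios was not tested. Of 5 testis markers 0 were measured, with sums of 0.0901 FPKM in SRSF1-MKO and 0.269 FPKM in WT. Prm1 and Tnp1 were listed at 0 in both libraries. Of 3 thymus epithelium markers, the factor Foxn1 was listed at 0 in both libraries. Prss16 was at 0.0218 FPKM in SRSF1-MKO and 0.0201 FPKM in WT. Only Ccl25 was measured, at 7.71 FPKM in SRSF1-MKO and 4.96 FPKM in WT. Its ratio was 1.55, with a counting interval above 1, and its log2 ratio with the pseudocount, 0.546, was within 1.5-fold.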

How the data were processed

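The authors deposited FPKM values with 1 column per library; the unit comes from the file's own name and its values. Bowtie and mm10 are named in the submitters' processing notes; for the annotation, counting and strand the sources used here give nothing. An emptied line (1 in all) is not analysed here. Columns were assigned by the genotype in their names.

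Differences are log2((SRSF1-MKO + 1)/(WT + 1)), a pseudocount of 1 FPKM, and were counted at 1.5-fold where the libraries average 1 FPKM or more (called measured). Whole reads were recovered from the steps in FPKM: 96.1% of 19044 rows above 0 in both libraries had a ratio that was a fraction of whole numbers (denominators to 20000, relative tolerance 2e-14) times 1.08, and common divisors gave the library totals (21350284 for SRSF1-MKO, 23146640 for WT). Where the implied length passed 1.25 times the longest GENCODE M21 transcript, for 5 of the 49 genes, reads were divided by a whole number. The smallest whole numbers that give the values were taken, so a factor common to both libraries would narrow the intervals. The recovery was tested on simulated data in which every gene had whole reads and 1 fixed length, which the deposited values may not share. At the totals used, 7.91% of 15798 genes had an implied length equal to that of a GENCODE transcript. The read numbers are therefore approximate. Intervals are exact (Clopper-Pearson) binomial 95% intervals on those reads. The 46 measured genes had at least 62 reads in SRSF1-MKO and 31 in WT. Named genes are all genes the name rule takes and, from the other lists, those past 1.5-fold or the 2 most abundant; some genes of these lists are not reported here. Uchl5, Usp14, Ddi2, Ngly1 and the marker genes were named after their values were seen. Genes, lists and rules were chosen with earlier results of these data known. Python 3.11.15 and scipy 1.17.1 were used.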

Additional observations from a re-analysis of the deposited data

How the results depend on the processing

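Scaling decided the counts. With the median log2 ratio of mRNA rows at 5 FPKM or more (0.32) set to 0, 7 proteasome genes were at least 1.5-fold higher and 3 lower, against 19 and 0 as deposited; the core had 3 higher, the cap 2 higher and 1 lower, and the activators 2 lower. The medians were then 0.21 over all genes, 0.45 for the core, 0.20 for the cap and -0.24 for the activators, and 13 genes lay below 0, against 4 as deposited. The signs that turned were those of Psma6 (-0.12), Psmc2 (-0.10), Psmd1 (-0.066), Psmd12 (-0.18) and Psmd14 (-0.20), whose counting intervals had been above 1, and of Psma3 (-0.26), Psmc5 (-0.29), Psmc3ip (-0.21) and Psmg1 (-0.31), whose intervals had included 1. By construction this setting takes the same amount off every gene. At a 2-fold threshold 3 genes were higher, 1 of the core, 2 of the cap and 0 activators. Fewer genes pass a larger fold, and the pseudocount of 1 FPKM kept some genes with an FPKM ratio above 2 under it. Without the filter on low values the core median was 0.54, because Psma8, Psmb9 and Psmb11 enter. By reads the immunoproteasome share in WT was 3.95%, against 4.52% by FPKM, which divides by length. A pseudocount of 0.1, rescaling to equal sums of nuclear-encoded mRNA, a mean of 5 FPKM or more, and leaving out Psmc3ip kept every count within 1.5 times and every median within 0.1 on the log2 scale. No paired analysis was possible because each genotype has 1 library, and for the same reason no library could be left out.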
